A study of Mus musculus with 3 samples.

Results

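Iron and 2-oxoglutarate dependent dioxygenases are enzymes that carry an iron atom in the active site and split molecular oxygen while they turn 2-oxoglutarate, an intermediate of the citric acid cycle, into succinate. One oxygen atom enters succinate and the other the substrate, so that the enzymes hydroxylate proteins, collagens and small molecules, or remove methyl groups from histones, DNA and RNA when the hydroxylated methyl group leaves. Their need for iron, oxygen and a mitochondrial metabolite has made them textbook examples of a link between metabolism and gene regulation. Here the transcripts of 42 such genes, of 18193 genes measured, were described in gastrocnemius muscle of mice that were fed a high-fat diet with or without an iron salt. The 42 genes were listed by name and not by their levels. They comprise 16 histone demethylases with a Jumonji C (JmjC) domain, 2 other JmjC proteins, 3 TET enzymes of methylcytosine in DNA, 9 AlkB-type enzymes of DNA and RNA, 6 collagen hydroxylases, 3 metabolic hydroxylases and 3 other protein hydroxylases. All 42 had at least 1 probe set that the array annotation gives to that gene alone.

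The mice were male C57BL/6J. From 6 weeks of age and for 15 weeks, the Control group ate diet D12450B with 10 kcal% fat, the HF group ate diet D12492 with 60 kcal% fat, and the HF + SFC group ate D12492 to which sodium ferrous citrate (SFC), an iron salt, was added at 0.023% of its weight. An age of 21 months is written on the sample labels of all 3 groups, which differs from the 6 weeks and 15 weeks of the series description. Both high-fat diets differed from the control diet in carbohydrate as well as in fat, and every diet held some iron. Each group was 1 array, an Affymetrix mouse GeneChip hybridised with the pooled material of that group's mice, so the number of mice behind an array is not known here and the spread between mice was not measured. Therefore no statistical test could be made, and each ratio compares 2 pools. Signals are MAS5 intensities on a linear scale without a unit, scaled to a common trimmed mean on all arrays. A probe set's signal may be compared between arrays and not with that of another probe set. As the muscle was bulk tissue, less RNA per cell and fewer cells of a type cannot be told apart in any value below.

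The arrays gave the label of the tissue its markers. All 12 fast fibre markers, such as Myh4 and Tnnt3, were far above the array median on every array, and 3 to 4 of 5 measured hepatocyte markers were below it. The array medians were between 63.6 and 68.0. Several cell type markers differed between the arrays. The summed signal of 10 slow fibre markers was 102835 on the Control array, 75565.7 on the HF array and 95822.9 on the HF + SFC array. The fast fibre sum was 556606, 511875 and 596908 in the same order, with HF as the lowest array for all 12 markers. Of the 10 slow fibre markers, 9 were lower in HF than in Control, and Casq2 was higher (log2 ratio 0.62). The sum of 8 measured adipocyte markers was 23764.8, 33747.6 and 30297.6, most of it from Fabp4 (21625.6, 26496.8 and 25305.6). The HF array was above Control for 7 of these 8, among them Lep (12.9-fold, from a Control signal of 45.8), Adipoq (5.15-fold) and Cidec (4.33-fold). Pck1 went the other way (219, 119 and 166). The list had a median fold of 2.07 for HF over Control. With SFC, 6 of the 8 were below HF and 2 above it. The sum of 12 fibroblast and matrix markers was 36423.9, 46579.5 and 45165.1. The sum of 11 leukocyte markers was 2567, 3223 and 3169, with 3 of them below the median on each array, and that of 8 endothelial markers was 6282, 6459 and 6624. The 3'/5' signal ratio of Gapdh, a measure of RNA integrity, was between 0.820 and 0.842, and that of beta-actin was 1.09, 1.52 and 1.15.

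The start regions of 4 members are shown because Kdm3a, P4ha1 and P4ha2 are textbook targets of hypoxia-inducible factor (HIF), whose own hydroxylases belong to this enzyme family, and because Kdm4c was 1 of 2 brightly measured members at 1.5-fold or more with SFC, a call that ended with median centring or an offset of 50. Each window runs from 250 bases before to 50 bases after the RefSeq start, in GRCm38.p6, on the strand of the gene. Capitals mark the letters ACGTG or GCGTG on either strand, the core of the hypoxia response element. CACGTG holds ACGTG on both strands and counts as 2.
P4ha1, chr10:59323046-59323345, plus strand: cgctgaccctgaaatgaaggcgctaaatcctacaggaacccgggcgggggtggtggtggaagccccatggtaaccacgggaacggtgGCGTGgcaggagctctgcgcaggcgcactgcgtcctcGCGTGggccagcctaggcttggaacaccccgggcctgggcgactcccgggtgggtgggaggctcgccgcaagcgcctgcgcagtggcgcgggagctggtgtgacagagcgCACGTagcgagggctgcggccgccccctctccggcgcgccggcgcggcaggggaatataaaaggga
P4ha2, chr11:54100674-54100973, plus strand: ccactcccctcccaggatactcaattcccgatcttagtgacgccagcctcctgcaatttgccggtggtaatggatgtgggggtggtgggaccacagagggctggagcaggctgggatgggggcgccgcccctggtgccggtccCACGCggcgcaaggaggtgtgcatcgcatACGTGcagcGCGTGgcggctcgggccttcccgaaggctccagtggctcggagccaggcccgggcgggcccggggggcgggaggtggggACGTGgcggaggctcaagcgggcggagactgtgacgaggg
Kdm3a, chr6:71632868-71633167, minus strand: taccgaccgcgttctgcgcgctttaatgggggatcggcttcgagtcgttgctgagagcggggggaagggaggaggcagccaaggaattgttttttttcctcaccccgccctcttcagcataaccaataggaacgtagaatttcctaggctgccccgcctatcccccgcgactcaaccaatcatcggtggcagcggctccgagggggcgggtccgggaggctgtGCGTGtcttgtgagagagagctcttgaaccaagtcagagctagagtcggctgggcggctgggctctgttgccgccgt
Kdm4c, chr4:74251629-74251928, plus strand: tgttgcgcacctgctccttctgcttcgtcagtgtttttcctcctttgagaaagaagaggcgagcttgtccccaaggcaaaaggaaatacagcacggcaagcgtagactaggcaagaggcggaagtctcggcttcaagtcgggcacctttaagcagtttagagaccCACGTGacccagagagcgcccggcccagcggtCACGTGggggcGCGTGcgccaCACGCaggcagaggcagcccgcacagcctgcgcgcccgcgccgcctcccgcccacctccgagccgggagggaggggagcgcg
The window of P4ha1 held 3 such matches, that of P4ha2 held 4, that of Kdm3a held 1 and that of Kdm4c held 6. Kdm3a had 2 further windows and Kdm4c 1 further window without a match. Of all 32817 windows in the table, 43.8% held at least 1 match, against 24 of the 43 windows (55.8%) of members. A window was found for 34 members, and 21 of these had a match in at least 1 window. This count per gene was not made for all genes and cannot be set against the 43.8% of windows. The matches describe the sequence only, and binding was not measured.

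In the comparison of HF with Control, which asks how these transcripts differed under the high-fat diet, the family as a whole was centred on no difference. HF had the higher signal for 23 of 42 members and the lower for 19. The median log2 ratio was 0.02, beside 0.01 over all genes. At least 1.5-fold higher were 5 members (Kdm4d, Tet1, Plod2, Tmlhe and Bbox1), and at least 1.5-fold lower were 2 (Hspbap1 and Alkbh2). Of all genes, 17.0% were 1.5-fold higher and 12.2% were 1.5-fold lower, so that 7 of 42 members stood beside 29.3% of all genes. This share depended on how bright a gene was. Among all genes with a mean signal above the 75th percentile of all probe sets (a signal of 386), 1.52% were 1.5-fold higher and 1.07% lower. Of the 25 members in this bright class none reached 1.5-fold, and their log2 ratios lay between -0.48 for Kdm3b and 0.46 for Kdm5a. Below the median signal of 61.1, where 64.0% of all genes passed 1.5-fold in either direction, lay 5 members (Kdm4d, Tet1, Alkbh2, P4ha3 and Bbox1). Accordingly, 4 of the 7 members past 1.5-fold were dim. The other 3 (Hspbap1, Plod2 and Tmlhe) lay between the median and the 75th percentile, where 18.9% of all genes passed.

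In the comparison of HF + SFC with HF, which asks how they differed when iron was added to it, HF + SFC had the higher signal for 21 members and the lower for the other 21, and the median log2 ratio was 0.01 for members and for all genes. Kdm3b and Kdm4c were at least 1.5-fold higher, and Hspbap1, P4ha3, Tmlhe and P4htm were at least 1.5-fold lower. Of all genes, 13.7% were 1.5-fold higher and 13.5% lower. In the bright class, however, these shares were 0.298% and 0.641%, and both Kdm3b and Kdm4c belonged to it. Both were close to the threshold. The log2 ratio of Kdm4c was 0.58 with median centring and 0.53 with an offset of 50, and that of Kdm3b was 0.50 with the mean of its 2 probe sets, each short of 1.5-fold. Among the 25 bright members the log2 ratios otherwise ran from -0.44 for Plod3 upward. HF + SFC against Control gave 20 members higher and 22 lower (median -0.02). Here 2 members were 1.5-fold higher (Plod2 and Bbox1) and 3 lower (Hspbap1, Alkbh2 and P4ha3), beside 16.5% and 12.4% of all genes. Both comparisons with HF use the same HF array, so that opposite signs in them are not independent of each other.

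**Figure D1:**
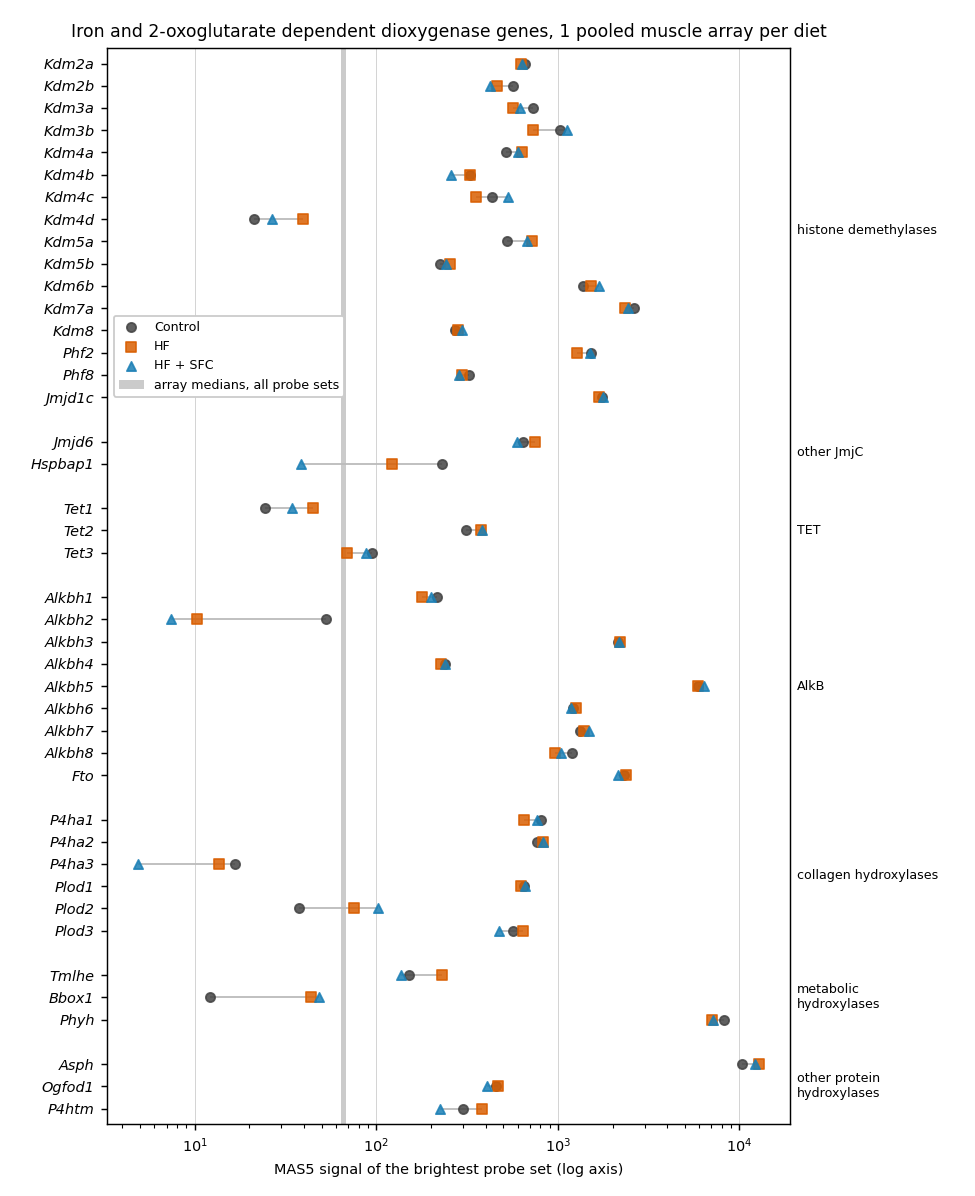
MAS5 signals (log axis) of the brightest probe set of each of the 42 dioxygenase genes, with 1 point per pooled array for Control (circles), HF (squares) and HF + SFC (triangles). The grey band spans the array medians of all probe sets. For 17 of 42 genes the highest signal was less than 1.2 times the lowest, and the widest spreads lie in the dim genes left of the band and in Hspbap1.

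The level of most members differed little. In 17 of 42 the highest of the 3 signals was less than 1.2 times the lowest, and in 31 it was less than 1.5 times. These counts were not made for all genes, so a narrow range is not shown to be particular to the family. The bright class held 25 of the 42 members. In that class 2.59% of all genes passed 1.5-fold in either direction for HF against Control, and 0.939% for HF + SFC against HF. As there were no replicate arrays, the only internal measure of error was how far 2 probe sets of the same gene disagreed on 1 pair of arrays. For the 22 members whose next brightest probe set was also above the median, the difference between the log2 ratios of the brightest and the next had an SD of 0.54 for HF against Control and 0.47 for HF + SFC against HF. For all 5196 such genes the SD was 0.41 and 0.39, and where both were above the 75th percentile (2456 genes) it was 0.26 and 0.23. For the 8 members with both above the 75th percentile it was 0.37 and 0.35, with the same sign for 3 of 8 in each comparison. Where the next probe set was below the median (3814 of all genes) the SD was 1.90 and 1.88. A log2 ratio of 0.58, which is 1.5-fold, was therefore of the order of this disagreement for members whose next probe set was above the median. The disagreement holds the error of both probe sets. Taken as equal in both, the SD per probe set was 0.38 and 0.33 for these members. A log2 ratio of 0.58 was far below the disagreement for genes whose next probe set was below the median. These groups go by the signal of the next probe set and not by the brightness of the gene. The brightest and the next probe set had the same sign for 12 of these 22 members in HF against Control and for 10 in HF + SFC against HF, beside 58.5% and 53.1% of all 5196 genes. Of the 22 members, 9 had all their probe sets above the median on one side of 0 in HF against Control. These were Kdm5b, Jmjd6, Tet2, Alkbh3, Fto and Plod2, higher in HF, and Kdm2a, Kdm2b and Jmjd1c, lower in HF. In HF + SFC against HF there were also 9, namely Kdm3b, Kdm6b, Phf2, Tet2 and Alkbh5 on the higher side and Kdm2b, Kdm5b, Jmjd6 and Fto on the lower side. The other 13 of the 22 were mixed in each comparison. Neither count was made for all genes, so the directions of the named genes are not shown to be secure.

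**Figure D2:**
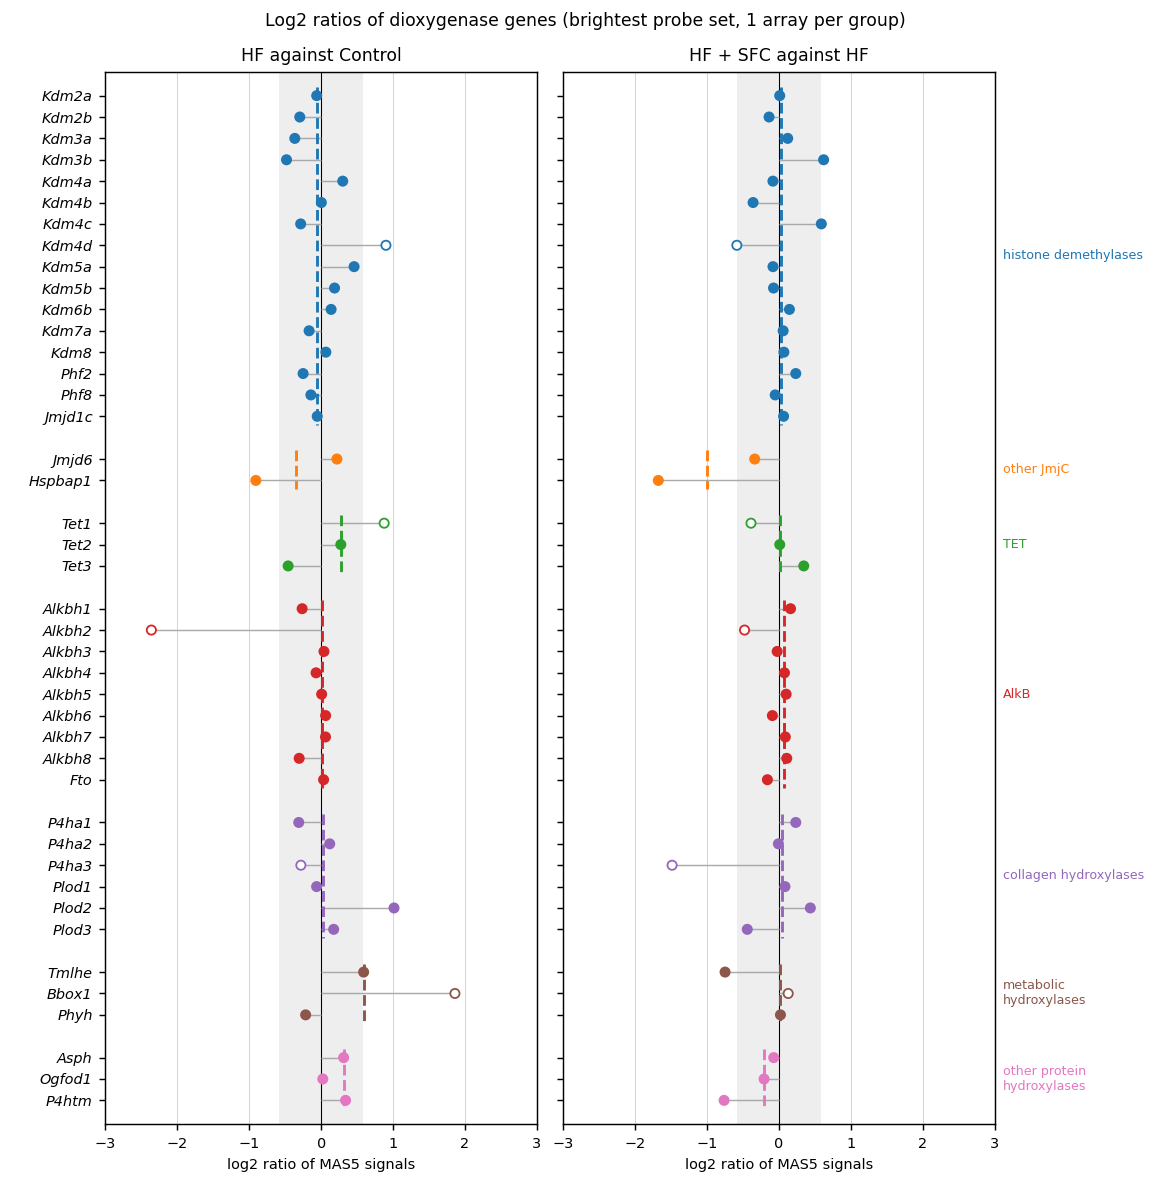
Log2 ratios of the brightest probe set of each of the 42 genes by enzyme class, for HF against Control and for HF + SFC against HF, with open symbols for probe sets below the median signal the range within 1.5-fold shaded and dashed lines at the class medians. Most points lie within the shaded range in both comparisons, with 35 of 42 within it for HF against Control and 36 of 42 for HF + SFC against HF.

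The medians of the classes were read as a description, since some hold 2 or 3 genes. For HF against Control the median log2 ratio was -0.06 for histone demethylases, 0.01 for AlkB enzymes and 0.03 for collagen hydroxylases. The small classes lay farther out, at -0.34 for the other JmjC proteins, 0.27 for TET enzymes, 0.59 for metabolic and 0.31 for other protein hydroxylases. For HF + SFC against HF the same 7 classes, in this order, had medians of 0.04, 0.08, 0.04, -1.003, 0.01, 0.02 and -0.20. For HF + SFC against Control these were 0.06, -0.02, -0.02, -1.35, 0.29, -0.15 and -0.18.

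The JmjC histone demethylases, which remove methyl groups from lysines of histones, varied around 0. Relative to Control, 7 of 16 were higher and 9 lower in HF, and relative to HF, 9 were higher and 7 lower with SFC. The KDM3 enzymes and Jmjd1c are relatives that act on a repressive mark of histone H3. Kdm3b had the widest bright difference, with signals of 1022 (Control), 732 (HF) and 1129 (HF + SFC). Thus the HF array was the low one, at a log2 ratio of -0.48 to Control, and HF + SFC was 1.54-fold above it and close to Control. Its other probe set, near the array median, gave 41.98, 72.9 and 94.1, which also put HF + SFC above HF (log2 0.37) but put HF above Control (0.80). Kdm3a, a HIF target with a known role in fat burning and obesity in mice, gave 733, 568 and 620.1 in the same order. Again HF was lowest, with log2 ratios of -0.37 and 0.13, and there was no second probe set to compare. The summed fast and slow fibre marker signals were lowest in HF as well, and their part in the values of Kdm3b and Kdm3a was not tested. Jmjd1c gave 1751, 1687 and 1769, with all 3 arrays within a log2 difference of 0.07. A second, dimmer probe set gave 108, 104 and 66.3, lower with SFC (log2 -0.65).

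The KDM4 enzymes act on trimethylated lysines of histone H3. Kdm4c gave 431 (Control), 354 (HF) and 534 (HF + SFC). HF was again the lowest array and HF + SFC the highest, 1.51-fold above HF (log2 0.59), on the only probe set of this gene, which fell short of 1.5-fold under the alternatives named above. Kdm4a went the other way in HF, with 516, 635 and 601 (log2 0.30 and -0.08), and its second probe set was dim. Kdm4b gave 328, 329 and 257. Here Control and HF were equal, and HF + SFC was lower by a log2 ratio of -0.36. Kdm4d, a gene best known from the testis, was dim on every array with 21.3, 39.7 and 26.6, and its 1.87-fold higher value in HF was at a level where most genes pass 1.5-fold.

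Kdm2a and Kdm2b bind CpG islands through a zinc finger. The brightest probe set of Kdm2a was nearly equal on the arrays (656, 628 and 635), and its second, also bright, was highest in Control and lowest in HF + SFC (523, 429 and 379.8, log2 -0.28 and -0.18). Kdm2b had that order too, with 567, 462 and 421. The second probe set of Kdm2b was lower in HF by less (334, 306 and 305), with log2 ratios of -0.13 and -0.01 against -0.30 and -0.13 for the brightest. Kdm5a and Kdm5b remove a methyl mark of active promoters. Kdm5a gave 523, 718 and 679.7 (log2 0.46 and -0.08), the highest ratio to Control among bright members. Of its 3 other probe sets above the median, 1 also had HF as the highest array (123, 191 and 149.5) and 2 had HF as the lowest (474, 417 and 544, and 191, 175 and 255). Kdm5b gave 223, 254 and 242, and its second probe set had the same order (93.3, 180.4 and 146).

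Kdm6b, which removes the Polycomb mark and is induced by inflammatory signals in macrophages, was lowest in Control and highest in HF + SFC (1376, 1515 and 1680.1, log2 0.14 and 0.15). A second probe set was also highest in HF + SFC (431, 408 and 526) but lowest in HF. Kdm7a, Phf2 and Phf8 read one histone mark with a PHD finger and act on another. Kdm7a gave 2626, 2338 and 2441, and a second bright probe set gave 1880.4, 2225 and 1921, so that the lowest array of the one was the highest of the other. Phf2, which has a known role in adipocyte formation, gave 1518, 1276 and 1505, a lower value in HF (log2 -0.25) and the reverse with SFC (0.24). All 3 of its other probe sets were higher with SFC than HF too, but 2 of them had HF above Control (log2 0.18 and 0.14). Phf8 gave 326, 295 and 285, a narrow range. Kdm8, whose substrate has been debated, gave 271, 283 and 298.

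The other JmjC proteins are Jmjd6, a lysyl hydroxylase of splicing factors, and Hspbap1, a protein that binds a small heat shock protein. Jmjd6 was highest in HF, with 642 (Control), 747 (HF) and 593 (HF + SFC) (log2 0.22 and -0.33). Its second probe set was nearly flat (449, 460.2 and 454). Hspbap1 had the widest range over the 3 arrays of the 37 members above the median signal, with 229.7, 122 and 38.4, so that HF was lower than Control (log2 -0.91) and HF + SFC lower still (-1.67). This probe set is of a kind that can bind several transcripts. The next one gave 88.2, 31.1 and 68.5, lower in HF as well (-1.50) but above HF with SFC (1.14). The order of HF and HF + SFC was therefore opposite on the 2 probe sets, while both had Control as the highest array.

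**Figure D3:**
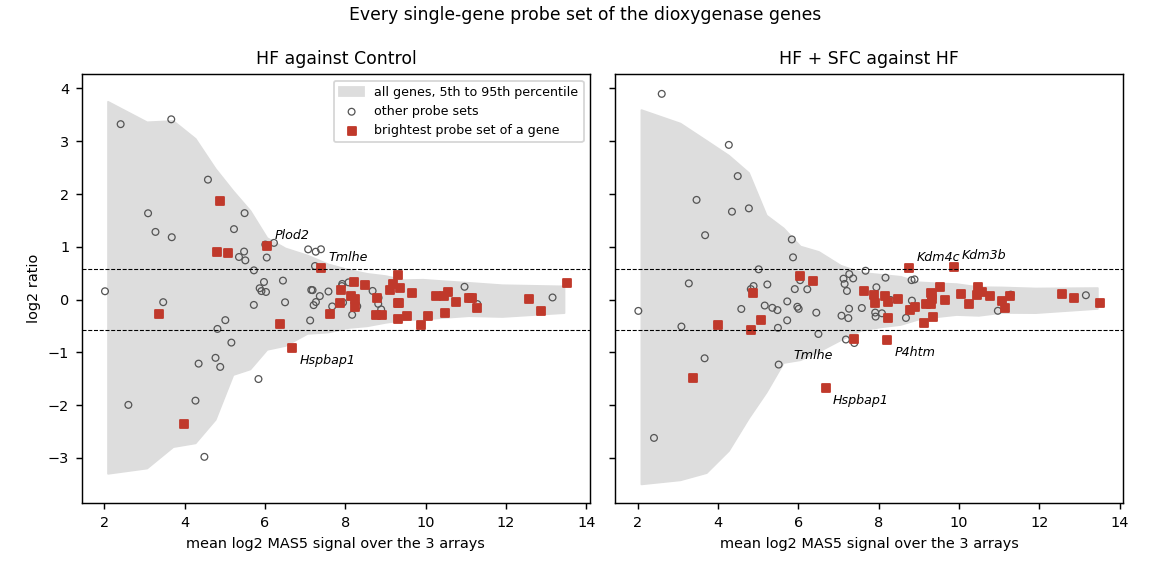
Log2 ratio against mean log2 MAS5 signal for every one of the 102 single-gene probe sets of the 42 genes, for HF against Control and for HF + SFC against HF. Filled squares are the brightest probe set of a gene, open circles its others, the shaded band is the 5th to 95th percentile of all genes at that signal and dashed lines mark 1.5-fold. The band is wide at low signal, and Kdm3b and Kdm4c lie above it at high signal in HF + SFC against HF. Other bright genes lie outside it too, such as Plod3, which lies below it in that comparison. In HF against Control, Kdm3b lies below the band and Kdm5a above it. Asph, at the far right, also lies above the upper edge of the band's right end in that comparison.

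The TET enzymes oxidise methylcytosine in DNA as the first step of its removal. Tet2 gave 314 (Control), 379 (HF) and 383 (HF + SFC), with a log2 ratio of 0.27 for HF and no further step with SFC (0.01). Its second probe set placed the step elsewhere, with 146, 153 and 202 (0.07 and 0.40), and both had HF + SFC as the highest array. Tet3 was lowest in HF, with 94.3, 68.6 and 87.4 (log2 -0.46 and 0.35) on its only probe set. Tet1 was dim (24.5, 45.0 and 34.4), and its other 3 probe sets, dim too, all placed HF below Control, against its brightest one. The writers of the mark these enzymes oxidise and Uhrf1, which guides Dnmt1, were mixed. Dnmt3a gave 1369, 1517 and 1497, Dnmt1 gave 373, 334 and 321, and Dnmt3b gave 97.0, 59.5 and 86.2, low in HF like Tet3. Of 4 measured genes of this list, 2 were higher and 2 lower in HF (median -0.01), and 1 was higher and 3 lower with SFC (median -0.04).

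The brightest probe sets of the AlkB enzymes had a narrow range, which their dimmer probe sets did not always share. Leaving out the dim Alkbh2, the log2 ratios of the other 8 brightest probe sets lay between -0.31 (Alkbh8) and 0.06 (Alkbh6) for HF against Control and between -0.16 (Fto) and 0.16 (Alkbh1) for HF + SFC against HF. Fto and Alkbh5 remove the methyl group of methyladenosine in messenger RNA, and Fto is known from its link to body weight. Fto gave 2322 (Control), 2377 (HF) and 2133 (HF + SFC). HF + SFC was the lowest array (log2 -0.16 to HF), and the second probe set also had HF highest (227, 271 and 229). Alkbh5 gave 5902, 5933 and 6374, with HF + SFC slightly the highest on this probe set and on its second one (2543, 2398 and 2559).

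Alkbh3 repairs alkylated bases in DNA and RNA, and its brightest probe set was nearly equal on the arrays (2132, 2192 and 2160.4). Its second, near the array medians, was lowest in Control (43.5, 91.6 and 105), with a log2 ratio of 1.07 for HF. Alkbh2, its partner in the repair of DNA, gave 53.0, 10.3 and 7.43, the lowest log2 ratio of all members in HF (-2.36). All 3 of these signals were below the array medians and the gene had 1 probe set only. Alkbh8, which completes a modified base in transfer RNA, gave 1195, 967 and 1045, lower in HF by a log2 ratio of -0.31. Its second probe set gave 131, 254 and 143 and was higher in HF (0.95). Alkbh1, which acts on transfer RNA and in mitochondria, gave 215, 179 and 201 (-0.26 and 0.16), and its second probe set went the opposite way (78.3, 100.5 and 84.7, log2 0.36 and -0.25). Alkbh7, a mitochondrial protein with a role in fat metabolism and cell death, gave 1328, 1385 and 1477. It was thus highest with SFC, by log2 ratios of 0.06 and 0.09. Alkbh4, which acts on actin, gave 238, 227 and 239.8. Its other probe sets were highest in HF, with 185, 206 and 184 and with 105, 197 and 175. Alkbh6, which is less well known, gave 1209, 1263 and 1188.

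Genes that write or read the mark removed by Fto and Alkbh5 were near 0 too. Of 10 measured, 4 were higher and 6 lower in HF (median log2 ratio -0.14), 6 were higher and 4 lower with SFC (median 0.05), and none reached 1.5-fold. The highest and lowest in HF were the reader Ythdc2 (309, 384 and 405) and Zc3h13 of the writer complex (341, 262 and 299). With SFC they were Rbm15, which recruits the writer (1064, 845 and 1200.5), and the reader Ythdf3 (4231, 5126 and 4484).

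The collagen hydroxylases modify proline and lysine of new collagen chains in the endoplasmic reticulum, which stabilises the triple helix and prepares crosslinks. Of 6, 3 were higher and 3 lower in both comparisons. P4ha1, P4ha2 and P4ha3 are catalytic subunits of prolyl hydroxylase. P4ha1 gave 805 (Control), 649 (HF) and 765 (HF + SFC), the lowest array being HF (log2 -0.31 and 0.24). Its second probe set gave 412, 462 and 363, with HF the highest. P4ha2 was flat between the high-fat groups (763, 829 and 826), and P4ha3 was dim on all arrays (16.6, 13.7 and 4.89). Of the lysyl hydroxylases, Plod1 gave 651, 624 and 663. Plod3, which also adds sugars to hydroxylysine, gave 569, 642 and 474, lowest with SFC (log2 -0.44 to HF). Plod2, which hydroxylates the ends of collagen chains where crosslinks form and is known from fibrosis, gave 37.5, 75.7 and 103. Control was the lowest array for it, with HF 2.02-fold and HF + SFC 2.74-fold higher. The call for HF ended with an offset of 50 (log2 0.52). A second probe set gave the same order to Control (41.4, 85.3 and 75.6), with a log2 ratio of 1.04 in HF, although both were close to the array medians.

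Most of the collagens, the substrates of these enzymes, were higher on the HF array. Of 12 collagens, HF was above Control for 11 (median 0.34), and 3 reached 1.5-fold, namely Col1a1 (968 (Control), 1883 (HF) and 1335 (HF + SFC)), Col1a2 (5695, 9557 and 8839.8) and Col5a2 (594, 998 and 818). Over all genes, HF was above Control for 50.7% and at least 1.5-fold above it for 17.0%. In the bright class, which held all of these collagens but Col15a1 and Col18a1, the shares were 43.8% and 1.52%. With SFC, 5 collagens were higher and 7 lower than in HF (median -0.08), and Col18a1 was 1.5-fold lower (186, 246 and 164). Further, Col3a1 gave 4759, 7051 and 6359, and the remaining 7, Col4a1, Col4a2, Col5a1, Col6a1, Col6a2, Col6a3 and Col15a1, had log2 ratios to Control between -0.06 and 0.38 in HF. Of the 10 measured partners of collagen assembly, 6 were higher and 4 lower in HF (median 0.20), and 3 were higher and 7 lower with SFC (median -0.07). Lox, which crosslinks collagen, gave 368, 664 and 563, and Crtap, a partner of the hydroxylase that modifies another position of proline, gave 366, 588 and 613. P4hb, the subunit shared by the prolyl hydroxylases, was lowest in HF + SFC (4388, 3769 and 3576), as was Colgalt2, which adds galactose to hydroxylysine (133, 95.9 and 85.6). The log2 ratios to Control of Ppib, Serpinh1, Loxl1, Colgalt1, Bmp1 and Pcolce in HF were between -0.04 and 0.26. Col1a1, Col1a2 and Col3a1 are also in the fibroblast and matrix list, whose summed signal was higher in HF and HF + SFC as given above. Its part in the values of Plod2 and of the collagens was not tested.

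**Figure D4:**
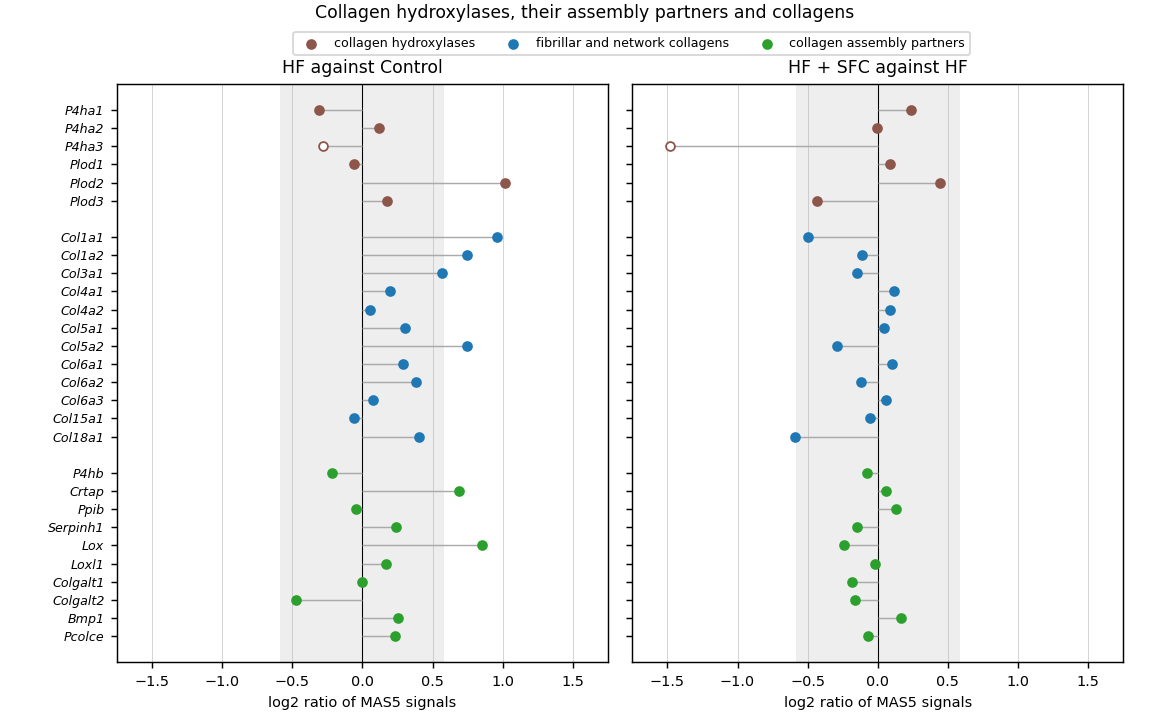
Log2 ratios of MAS5 signals of the collagen hydroxylases, of 12 collagens and of 10 partners of collagen assembly, for HF against Control and for HF + SFC against HF, 1 point per gene, with the range within 1.5-fold shaded and an open symbol for a probe set below the median signal. Most collagens (11 of 12) lie right of 0 in HF against Control, while the 6 hydroxylases lie on both sides, with Plod2 the farthest right.

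The metabolic hydroxylases make carnitine, which carries fatty acids into mitochondria, or open the way to the breakdown of branched fatty acids. Tmlhe, the first enzyme of carnitine synthesis, was highest in HF with 152, 229 and 137 (1.51-fold over Control, then log2 -0.74). The first of these calls ended with quantile normalization (log2 0.54), with median centring (0.51) and with an offset of 50 (0.47). Its second probe set had the same order (160, 181 and 107, log2 0.18 and -0.76), whereas another had HF as the lowest array (153, 116 and 153). Bbox1, the last enzyme of the pathway and known chiefly from liver and kidney, was dim with 12.1, 44.0 and 48.2. Its log2 ratio of 1.86 was the highest of all members in HF, at signals below the array medians throughout. The other carnitine genes differed less. Aldh9a1, which acts between Tmlhe and Bbox1, gave 786, 823 and 904, and the carnitine carrier Slc22a5 gave 656, 687 and 809. Cpt2 (2926, 3423 and 3286), Slc25a20 (6698, 6905 and 6956) and Crat (6145, 6037 and 6716), which use or carry acyl-carnitines in mitochondria, completed the list. Of these 5, 4 were higher and 1 lower in each comparison (medians 0.07 and 0.14), and none reached 1.5-fold.

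Phyh, the peroxisomal enzyme that hydroxylates phytanoyl-CoA, was lower on both high-fat arrays, with 8194 (Control), 7057 (HF) and 7179.6 (HF + SFC) (log2 -0.22 and 0.02). Of the other genes of phytanate breakdown, Amacr alone was also lower on both. Scp2, a sterol and fatty acid carrier, gave 8358, 11053 and 10642, and Pex7, the receptor that imports Phyh into peroxisomes, gave 2431, 2634 and 2824. Hacl1 (293, 303 and 301), Pex5 (495, 504 and 469) and Amacr (1322, 1298 and 1267) were nearly flat, and Slc27a2 was dim (4.68, 21.0 and 5.18). Of these 6 genes, 5 were higher in HF (median 0.08) and 1 was higher with SFC (median -0.04).

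The other protein hydroxylases all had HF as the highest array, by different amounts. Asph hydroxylates growth factor-like domains, and the same gene makes junctin and junctate, proteins of the calcium store of muscle that lack the hydroxylase domain. It gave 10276 (Control), 12766 (HF) and 12169.5 (HF + SFC) (log2 0.31 and -0.07). The second probe set was flatter and had another order (8806, 9056 and 9591), and which of these products each probe set reads is not known here. P4htm, a hydroxylase of the endoplasmic reticulum membrane that can act on HIF, gave 301, 382 and 225 (log2 0.34 and -0.76). This probe set can bind several transcripts, and the other gave 141, 137 and 191 (-0.05 and 0.48), the opposite direction with SFC. Ogfod1, which hydroxylates a ribosomal protein, gave 459, 466 and 405, lowest with SFC (log2 -0.20 to HF).

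Enzymes of the same chemistry outside the list were compared in the same manner. The oxygen sensors that hydroxylate HIF were flat, with 8913, 8534 and 8874 for Egln1, 3026, 2888 and 2882 for Egln2 and 3361, 2986 and 3048 for Hif1an. Egln3, itself a HIF target, was highest in HF (1356, 1616 and 1221, log2 0.25 and -0.40). Over the 4, the medians were -0.07 and 0.01. Among 17 further enzymes of the family, 11 were higher and 6 lower in HF (median 0.14), and 6 were higher and 11 lower with SFC (median -0.16). The highest and lowest of these above the median signal in HF were Jmjd8 (181, 299.8 and 202) and the ribosomal oxygenase Riox1 (304, 172 and 249). With SFC, Riox1 was the highest and Asphd2 the lowest (98.0, 102 and 37.3). Demethylases of the other chemistry, which use FAD and not iron, gave 1507, 1487 and 1362 for Kdm1a and 646, 694 and 672 for Kdm1b (medians 0.04 and -0.09).

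The histone lysine methyltransferases, which write the marks that the demethylases remove, were mostly lower in HF. Of 25 measured, HF was above Control for 6 and below it for 19 (median -0.08), and HF + SFC was above HF for 16 and below it for 9 (median 0.08). Above the median signal, the highest in HF was Suv39h2 (50.8, 89.9 and 71.6) and the lowest was Ehmt2 (834, 582 and 699). With SFC the highest was Ezh2 (238, 225 and 337) and the lowest Nsd2 (154, 233 and 138). For all 6707 bright genes, HF was above Control for 43.8% and HF + SFC was above HF for 53.7%. Not all of the 25 were bright, and some, such as Ezh2, Suv39h2 and Nsd2, lay between the median and the 75th percentile. For all genes of that range the shares were 54.5% and 48.6%.

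Genes that supply or consume 2-oxoglutarate differed little. Of 14 measured, 5 were higher and 9 lower in HF (median -0.11), 10 were higher and 4 lower with SFC (median 0.05), and none reached 1.5-fold. Idh3b of the citric acid cycle was the highest in HF (24013, 29215 and 29205) and the aminotransferase Gpt the lowest (682, 559 and 546). With SFC these were Idh1 (1123, 925 and 1059) and Gpt2 (13711, 16456 and 13405). Of 17 measured HIF target genes, 7 were higher and 10 lower in both comparisons (medians -0.11 and -0.05). Ankrd37 was the highest in HF (117, 179 and 135), and Pfkfb3, which makes an activator of glycolysis, was the lowest (5914, 3529 and 3115, log2 -0.74). With SFC, Pdk1 was the highest (2786, 2292 and 2793) and Car9 the lowest (85.3, 122 and 74.2).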

How the data were processed

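Gastrocnemius RNA of the Control, HF and HF + SFC groups was measured on 3 arrays, 1 pooled array per group. The deposited intensities are linear MAS5 signals, scaled by the authors to a common trimmed mean (2% trimmed at each end). MAS5 is named by the submitters' processing notes with no version number, and the paper's methods name TAC software for the analysis. MAS5 subtracts mismatch signals, so that low values are noisy. Detection calls were not used here.

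Of 45101 probe sets, 34945 were given to 1 gene by the array annotation, 932 to several genes and 9160 to none, and 64 were controls. Gene IDs of 34754 probe sets matched RefSeq (GRCm38.p6), from which current symbols and promoter windows were taken. The brightest probe set (mean log2 signal of 3 arrays) stood for its gene. The 42 members had 102 probe sets, 1 each for 13 members and several for 29. Log2 ratios were taken from the deposited intensities with no offset. A call was a ratio of at least 1.5-fold, a threshold the paper uses for these arrays.

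No test was run because each group had 1 array, and precision is limited by the number of arrays. The calculation was checked on simulated data. As alternatives, the probe sets of each gene were averaged, arrays were normalized by quantiles or centred on their medians, an offset of 50 was added, dim probe sets were left out, probe sets for more than 1 transcript (by their ID ending) were left out, and the threshold was set at 2-fold.

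The members, the 12 related lists and the 7 marker lists were written from textbook knowledge, with earlier results of these data known. All members are named, with the highest and lowest gene above the median signal in each related list and every gene of the lists on collagens, collagen assembly, carnitine and phytanate. No gene-specific probe set was found for Jmjd7, Phyhd1, Suv39h1, Tdg, Ythdf2, Loxl2, Fkbp10, Cpt1b and Bnip3l of the related lists, nor for Plin1, Cfd and Serpina1a of the marker lists. Python 3.11.15 with numpy 2.4.6, pandas 2.3.3, scipy 1.17.1 and matplotlib 3.10.9 was used.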

Additional observations from a re-analysis of the deposited data

How the results depend on the processing

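No paired analysis was possible because each group had 1 array. For the same reason no replicate could be left out. The summary values were medians over all members and over each class, and counts past 1.5-fold, recomputed under 7 alternatives. Of these, 136 moved by less than a limit or stayed within 1.5 times the count, 47 moved by more and 3 changed sign. For a median, the limit was the SD per probe set (0.290 for HF against Control) divided by the square root of the number of members. In that comparison it was 0.0447 for 42 members and 0.0725 for 16. For single members the SD per probe set was not divided, and their values gave 684, 45 and 6. Quantile normalization moved no summary value by more than its limit. The causes were not tested.

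With the mean of all probe sets in place of the brightest, the median log2 ratio of all members was 0.0926 for HF against Control and 0.0438 for HF + SFC against Control. The members 1.5-fold lower in HF were then 4, 5 were higher and 2 lower with SFC relative to HF, and 7 were higher with SFC relative to Control. The class medians for HF against Control became 0.0345 for histone demethylases, -0.46 for TET enzymes, 0.15 for collagen hydroxylases and -0.11 for metabolic hydroxylases, the last with the sign changed. For HF + SFC against HF they became 0.26 for the other JmjC proteins, with the sign changed, 0.35 for TET, -0.0839 for AlkB, -0.25 for collagen and -0.30 for metabolic enzymes. For HF + SFC against Control they became 0.28 for histone demethylases, -0.0153 for the other JmjC proteins, -0.18 for collagen hydroxylases and 0.12 for the other protein hydroxylases. Single members whose sign changed were Tet1 (-0.81) and Tmlhe (-0.11) in HF against Control and Hspbap1 in HF + SFC against HF (0.71) and against Control (0.0207).

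With median centring, which lowered the median of all genes to -0.08 in both comparisons with Control, the members' median was -0.0674 in HF and -0.12 in HF + SFC against Control. That of histone demethylases was -0.141 and -0.0317, that of AlkB enzymes in HF + SFC against Control was -0.12, and 1 member was 1.5-fold above HF with SFC.

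With an offset of 50, 1 member was 1.5-fold above Control in HF, and 1 was above and 2 below HF with SFC. The median of the other JmjC proteins was -0.64 against HF and -0.88 against Control with SFC.

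With dim probe sets left out (37 members), 2 members were 1.5-fold above and 1 below Control in HF, and 1 was above and 1 below Control with SFC. The median of TET enzymes was -0.0924, 0.182 and 0.0893 for HF against Control, HF + SFC against HF and HF + SFC against Control, and that of metabolic hydroxylases was 0.19 for the first and -0.36 for the second of these.

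Without probe sets whose ID ending marks more than 1 transcript (40 members left), 2 members were 1.5-fold below HF with SFC. The median of the other JmjC proteins was -0.67, 0.46 (sign changed) and -0.21 for the 3 comparisons, that of the other protein hydroxylases was 0.0232 for HF and 0.244 for HF + SFC against Control, and that of AlkB enzymes was -0.0207 for HF + SFC against HF. In HF + SFC against HF the sign changed for Hspbap1 (1.14) and P4htm (0.48).

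Member calls in HF against Control that ended were Kdm4d (0.33), Tet1 (0.35), Plod2 (0.52) and Tmlhe (0.47) with the offset, and Tmlhe with quantile normalization (0.54) and median centring (0.51). In HF + SFC against HF they were Kdm4c with median centring (0.58) and the offset (0.53), P4ha3 (-0.21) and Tmlhe (-0.58) with the offset, and Kdm3b (0.50), P4htm (-0.14) and Tmlhe (-0.30) with the mean of all probe sets. In HF + SFC against Control they were P4ha3 with the offset (-0.28) and Hspbap1 without the probe sets for more than 1 transcript (-0.36).

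At 2-fold, 2 members were above and 1 was below Control in HF, and 0 were above and 2 below HF with SFC.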

Other observations

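A probe set that the annotation gives to both Kdm6b and 1700064E03Rik was not used for either gene. It gave 58.8, 89.8 and 144.6 on the Control, HF and HF + SFC arrays and was highest with SFC like the brightest probe set of Kdm6b alone.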
